A study of Mus musculus with 7 samples.

Results

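The Hox genes of the mouse were followed across 7 single-colour arrays of Nanog knockout (KO) and wild-type (WT) cells. Members were chosen by symbol alone, as Hoxa, Hoxb, Hoxc or Hoxd followed by a number, on probe sets that the platform annotation ties to 1 gene. This gave 36 of the 22180 genes measured, with 9 in the HoxA cluster on chromosome 6, 10 in HoxB on chromosome 11, 9 in HoxC on chromosome 15 and 8 in HoxD on chromosome 2. Other Hox genes were not analysed here. The groups were Nanog KO induced pluripotent stem cells (iPSC, 2 arrays), WT iPSC (2 arrays), WT embryonic stem cells (ESC, 1 array), Nanog KO mouse embryonic fibroblasts (MEF, 1 array) and WT MEF (1 array), all of strain 129. An iPSC is a somatic cell returned to a pluripotent state by added reprogramming factors, and Nanog is a homeobox transcription factor of pluripotent cells. The design text names KO iPSC against WT pluripotent cells as the study's comparison. The labels call the iPSC replicates biological, without saying whether they are separate lines, and p-values measure only the spread between these samples. The labels name media for ESC, for MEF and with 2i/LIF without tying them to samples, so medium and genotype cannot be told apart. The knockout allele, the reprogramming method and the embryonic age or body region behind the MEF are not given in the sources used here.

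Hox genes encode homeodomain transcription factors that give cells their position along the body axis and the limb. Within a cluster, genes of low paralogue number lie at the 3′ end and act in anterior regions, and genes of high number lie at the 5′ end and act in posterior and distal regions. Fibroblasts keep a Hox pattern of the region they came from, while pluripotent cells hold the clusters under Polycomb repression, a chromatin state marked by trimethylated lysine 27 of histone H3.

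Nanog itself had log2 intensities of 7.51 and 7.45 on the KO iPSC arrays, against 12.84 and 12.76 on the WT iPSC arrays and 12.73 on the WT ESC array. The MEF arrays had 6.42 (KO) and 6.53 (WT), so the KO iPSC values lay above those of both MEF arrays (1.05 above KO MEF on the log2 scale), and whether the Nanog probe set covers the deleted part was not tested. Background was read from 1394 olfactory and vomeronasal receptor genes, which these cells are not known to use: the yardstick of an array is their 95th percentile there, between 6.30 and 6.50 over the 7 arrays. Markers listed for fibroblasts (30 measured) had median levels of 7.15 and 6.92 in KO iPSC, 9.54 and 7.76 in WT iPSC, 8.58 in WT ESC, 12.36 in KO MEF and 12.07 in WT MEF. Markers of pluripotent cells (15 measured) had medians of 9.78 and 9.82 in KO iPSC, 11.13 and 11.24 in WT iPSC, 11.21 in WT ESC, 6.19 in KO MEF and 6.28 in WT MEF. These medians fell on different genes, Sall4 on the WT pluripotent arrays and Dppa4 or Fgf4 on the KO iPSC arrays. Gene by gene, the median difference of KO iPSC minus WT pluripotent cells was only -0.24. Of the 15, 5 were called lower, Nanog among them, and 0 higher (limma). Each labelled cell type thus had its own markers high, but the WT pluripotent arrays carried more fibroblast marker signal than the KO iPSC arrays. WT iPSC replicate 1 carried the most among the 5 pluripotent arrays.

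A Hox gene was read as above background on an array when it exceeded that array's yardstick. In MEF, 32 of the 36 members were above background on the KO array and 33 on the WT array. In pluripotent cells the counts were 23 and 21 on the KO iPSC arrays, 23 and 22 on the WT iPSC arrays and 23 on the WT ESC array. On both MEF arrays 31 members (86.1%) were above background, against 59.7% of all genes, and on all 5 pluripotent arrays 17 members (47.2%) were, against 58.0% of all genes. Hoxa5, Hoxa9, Hoxb2, Hoxb8 and Hoxc5 were above background on both MEF arrays and on none of the 5 pluripotent arrays (13.9% of members, against 0.821% of all genes). Hoxd1, an anterior gene, was above background on no array. The counts rest on the yardstick, since with the 99th percentile of the receptor genes only 15 members passed on both MEF arrays and 2 on all 5 pluripotent arrays.

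**Figure D1:**
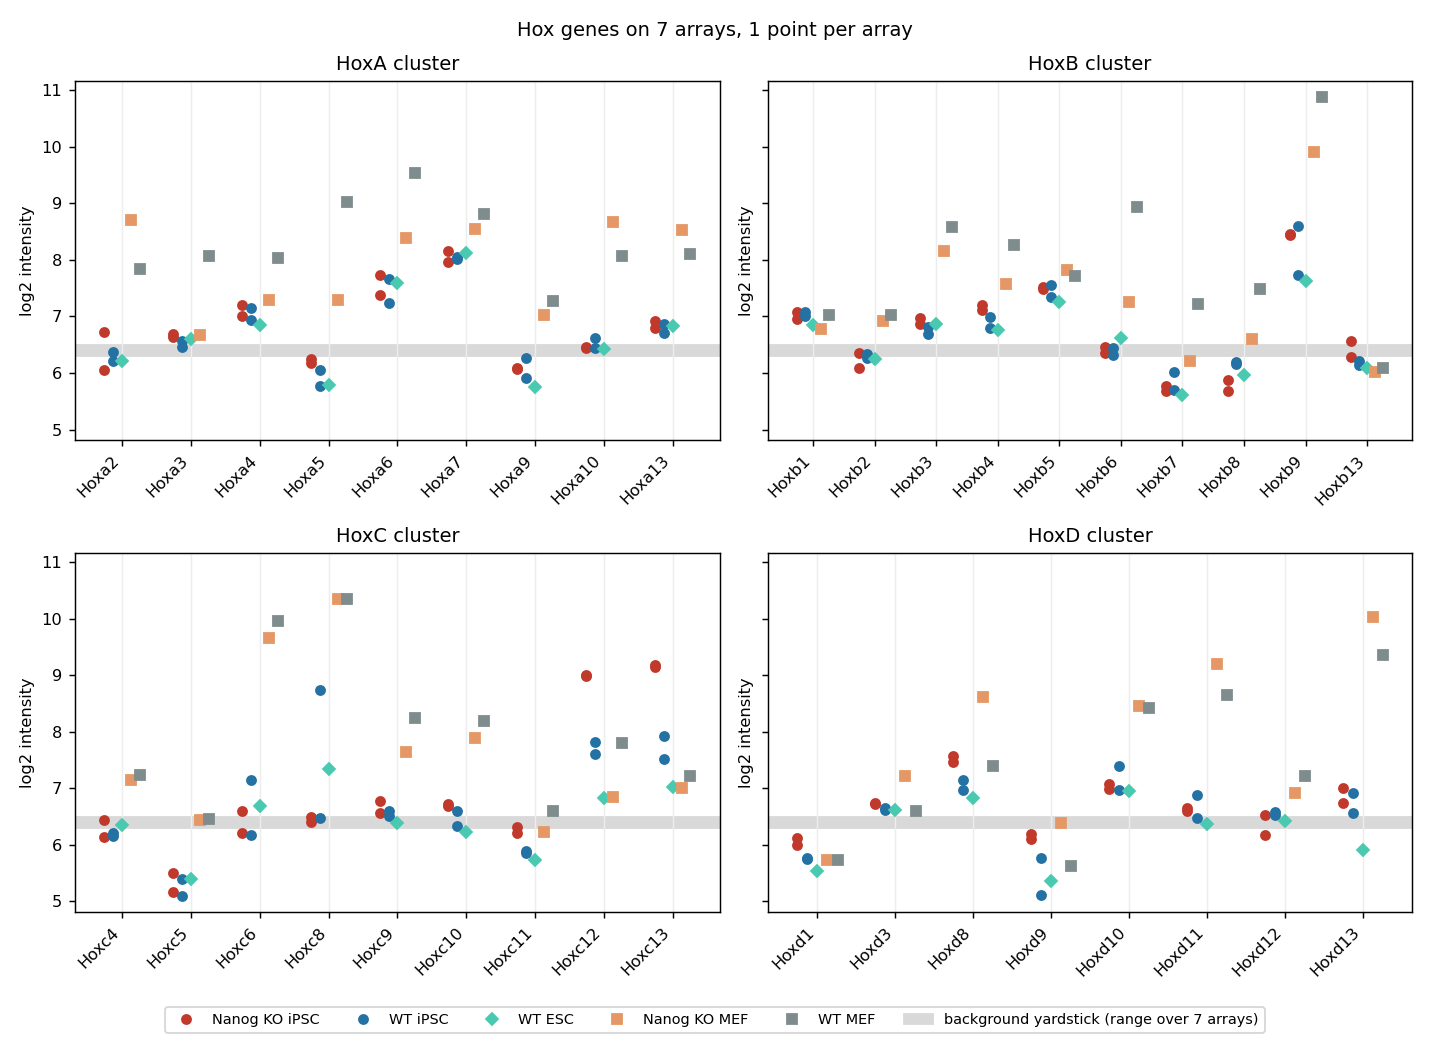
Log2 intensity of the 36 Hox genes (x axis, by cluster and paralogue number) on each of the 7 arrays, 1 point per array, coloured by group, with the range of the background yardstick (6.30 to 6.50) in grey; heights are to be read within a gene, not between genes. In most columns both MEF squares stand above the pluripotent points, and in Hoxc12 and Hoxc13 the KO iPSC points stand on top.

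The first comparison asked how the Hox genes of iPSC differed from those of MEF, with genotype as a term in the fit and WT ESC left out. In iPSC 25 of the 36 Hox genes were lower and 0 were higher (limma, adjusted p below 0.05 over all genes), 15 of the 25 by at least 2-fold. Another 3, Hoxa9, Hoxb8 and Hoxc5, had fitted differences past 2-fold, but with all 4 iPSC arrays below background their bounds were 1.64, 1.52 and 1.01-fold. Among all genes 14.7% were called lower and 16.0% higher. The median Hox difference was -1.01 on the log2 scale, against 0.03 over all genes. Every iPSC array lay below both MEF arrays in 26 members (72.2%), against 20.7% of all genes. In these bulk samples, fewer cells expressing a gene and less RNA per cell cannot be told apart.

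All 4 clusters took part. In HoxA 7 of 9 genes were lower in iPSC (median log2 difference -1.46), in HoxB 7 of 10 (-0.91), in HoxC 6 of 9 (-1.17) and in HoxD 5 of 8 (-0.66). By paralogue number, among groups 1 to 3, 3 of 7 genes were lower, among groups 4 to 8, 12 of 14, and among groups 9 to 13, 10 of 15. The difference between these shares was not tested. All measured members of groups 2, 6, 7, 8 and 10 fell, and neither measured member of group 1 did: Hoxb1 and Hoxd1, which differed by 0.13 and 0.17. At the posterior end the genes split within a group, since among the 4 genes of group 13 Hoxa13 and Hoxd13 fell, while Hoxb13 and Hoxc13 had positive differences that did not pass the test.

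**Figure D2:**
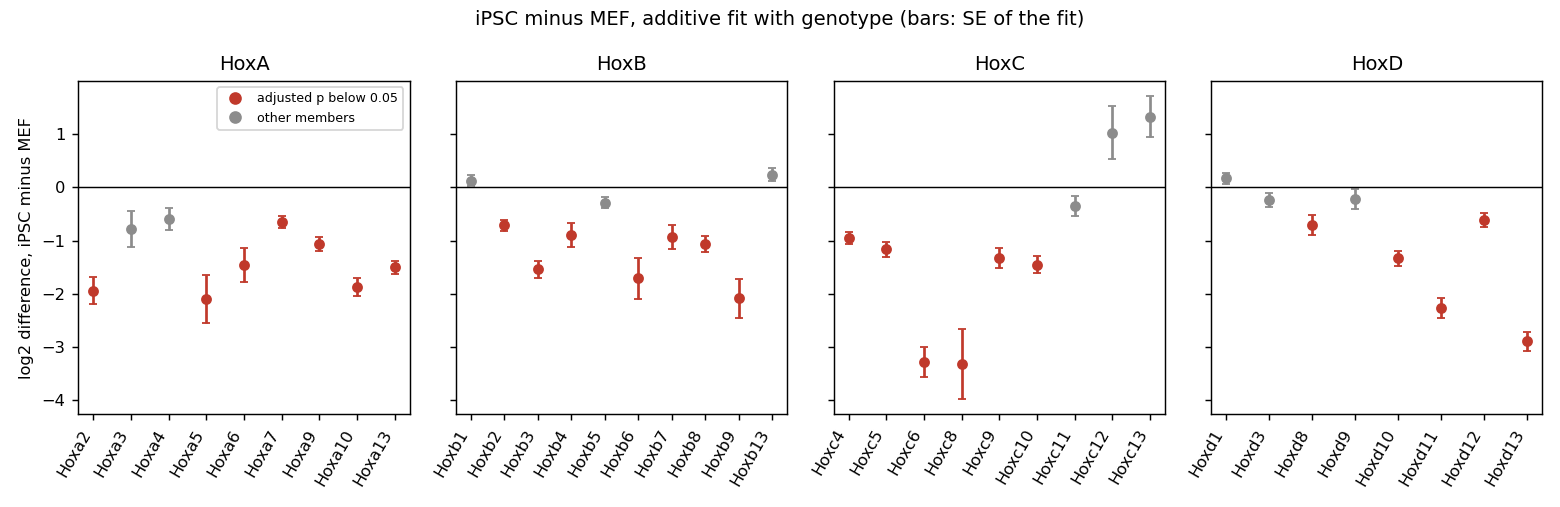
Log2 difference of iPSC minus MEF (y axis) for each Hox gene by cluster (x axis), with bars giving the standard error of the fit; red points have an adjusted p below 0.05. The 25 red points all lie below 0, down to -3.32 for Hoxc8, and Hoxc12 and Hoxc13 lie highest.

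The largest differences were in the mid-cluster genes Hoxc8 and Hoxc6, which pattern the thorax and the forelimb level. Hoxc8 had 6.41 and 6.49 in KO iPSC and 8.73 and 6.47 in WT iPSC, against 10.35 in KO MEF and 10.34 in WT MEF. All 4 iPSC arrays were below both MEF arrays, with WT iPSC replicate 1 far above the other 3. The log2 difference was -3.32 (SE 0.66, adjusted p 0.016, limma), or 9.98-fold lower in iPSC. Hoxc6 had 6.59 and 6.22 in KO iPSC and 7.15 and 6.18 in WT iPSC, against 9.66 in KO MEF and 9.96 in WT MEF. It was 9.71-fold lower in iPSC (log2 difference -3.28, SE 0.29, adjusted p 0.00157, limma).

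Hoxc8 and Hoxc6 had the same order as the fibroblast markers on the 3 WT pluripotent arrays. Both were highest on WT iPSC replicate 1 (8.73 and 7.15), next on WT ESC (7.35 and 6.70) and lowest on WT iPSC replicate 2 (6.47 and 6.18), the order of the fibroblast marker medians (9.54, 8.58 and 7.76). Prrx1, a mesenchymal homeobox gene, had 10.01, 8.77 and 7.24 on the same 3 arrays. The order did not extend to the KO iPSC arrays, whose marker medians (7.15 and 6.92) were below that of WT iPSC replicate 2. Hoxc6 had 6.59 and 6.22 there and Hoxc8 6.41 and 6.49. Among the 25 members called lower in iPSC, WT ESC was the lowest of the 5 pluripotent arrays in 11 and the highest in 1. WT iPSC replicate 1 was the highest in 7 and the lowest in 0. The part of fibroblast RNA in these Hox levels was not tested. Without WT iPSC replicate 1, 19 Hox genes were called lower in iPSC and 1 higher, and without KO iPSC replicate 2, 17 were called lower. Shares of all genes in these 2 settings were not compared.

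**Figure D3:**
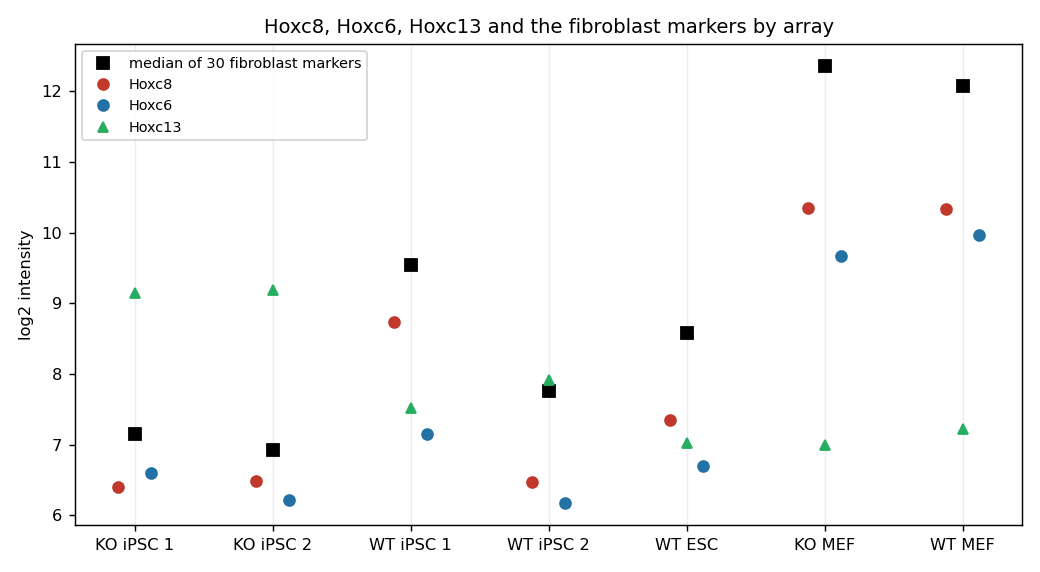
Log2 intensity (y axis) of Hoxc8, Hoxc6, Hoxc13 and the median of 30 fibroblast markers on each array (x axis); each symbol is 1 array, and heights are to be read within a symbol. Hoxc8, Hoxc6 and the marker median are high in both MEF and, among pluripotent arrays, in WT iPSC replicate 1, while Hoxc13 is highest on the KO iPSC arrays (9.15 and 9.18).

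The posterior HoxD genes, which act in the distal limb and the genital bud, came next. Hoxd13 had 6.74 and 7.001 in KO iPSC and 6.91 and 6.55 in WT iPSC, against 10.03 in KO MEF and 9.36 in WT MEF. The groups were more than 2 log2 units apart. Hoxd13 was 7.42-fold lower in iPSC (log2 difference -2.89, SE 0.18, adjusted p 0.000825, limma). Hoxd11, its neighbour in limb patterning, had 6.65 and 6.60 in KO iPSC and 6.89 and 6.47 in WT iPSC, against 9.19 in KO MEF and 8.65 in WT MEF, a 4.82-fold lower level in iPSC (adjusted p 0.0014, limma). Hoxd10 and Hoxd12 fell by less (log2 differences -1.33 and -0.61). Hoxd9 and Hoxd3 differed by -0.21 and -0.23 and did not pass the test.

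Among the posterior HoxA genes, Hoxa13, a distal limb and hindgut gene, had 6.79 and 6.91 in KO iPSC and 6.87 and 6.70 in WT iPSC, against 8.53 in KO MEF and 8.11 in WT MEF. It was 2.82-fold lower in iPSC (adjusted p 0.00132, limma). Hoxa10, a lumbar and limb gene, had 6.46 and 6.45 in KO iPSC and 6.62 and 6.44 in WT iPSC, against 8.66 in KO MEF and 8.07 in WT MEF, 3.66-fold lower (adjusted p 0.00177, limma). In both genes the iPSC arrays lay within 0.3 log2 units of each other. Hoxa2, a gene of the hindbrain and second pharyngeal arch, had 6.73 and 6.05 in KO iPSC and 6.21 and 6.37 in WT iPSC, against 8.71 in KO MEF and 7.84 in WT MEF, 3.83-fold lower (adjusted p 0.00489, limma).

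Of the genes of groups 4 to 8, 3 of 4 in HoxA and 4 of 5 in HoxB fell, and in Hoxa5, Hoxb6 and Hoxa6 the 2 MEF arrays stood more than 1 log2 unit apart. Hoxa5, a gene of the lung and the cervical level, had 6.24 and 6.17 in KO iPSC and 6.06 and 5.77 in WT iPSC, against 7.29 in KO MEF and 9.02 in WT MEF. All 4 iPSC arrays were below background, so iPSC were at least 3.29-fold lower (fitted log2 difference -2.10, adjusted p 0.0214, limma). Hoxb6, expressed in lateral plate mesoderm, had 6.46 and 6.36 in KO iPSC and 6.43 and 6.31 in WT iPSC, against 7.25 in KO MEF and 8.94 in WT MEF, at least 3.16-fold lower in iPSC (adjusted p 0.0243, limma). Hoxa6 had 7.74 and 7.38 in KO iPSC and 7.66 and 7.23 in WT iPSC, against 8.39 in KO MEF and 9.53 in WT MEF (log2 difference -1.46, adjusted p 0.0227, limma). In all 3 genes the lower MEF array still exceeded every iPSC array.

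Hoxb9, a thoracic gene, stayed well above background in iPSC. It had 8.46 and 8.44 in KO iPSC and 8.60 and 7.73 in WT iPSC, against 9.91 in KO MEF and 10.87 in WT MEF. The level was 4.23-fold lower in iPSC (log2 difference -2.08, SE 0.36, adjusted p 0.0107, limma). Hoxb3, a hindbrain gene, had 6.97 and 6.86 in KO iPSC and 6.81 and 6.69 in WT iPSC, against 8.16 in KO MEF and 8.58 in WT MEF, 2.91-fold lower (adjusted p 0.00216, limma). The other 13 members called lower had log2 differences between -1.45 (Hoxc10) and -0.61 (Hoxd12). For Hoxb5 the choice of probe set mattered, since the brighter one differed by -0.29 (adjusted p 0.0859, limma) and the other by -1.64, and with the mean of both Hoxb5 was called lower (-0.96, adjusted p 0.0177, limma).

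Several of the members lie at CpG-dense promoters. RefSeq windows from 250 bases before to 50 bases after the start site (assembly GRCm38.p6) matched 20 of the 36 members, with 22 windows. They held a median of 17 CpG dinucleotides, against 7 over 32851 windows, and 19 of the 22 lay above the overall median. Hoxd13 is shown as the member with a window that fell most (37 CpG), Hoxa5 as the gene that differed most between the 2 MEF arrays (29 CpG) and Hoxd8 as a gene that differed between KO and WT iPSC (6 CpG). Each line is written 5′ to 3′ on the gene's strand, with CpG in capitals.
Hoxd13 promoter, chr2:74667975-74668274, plus strand: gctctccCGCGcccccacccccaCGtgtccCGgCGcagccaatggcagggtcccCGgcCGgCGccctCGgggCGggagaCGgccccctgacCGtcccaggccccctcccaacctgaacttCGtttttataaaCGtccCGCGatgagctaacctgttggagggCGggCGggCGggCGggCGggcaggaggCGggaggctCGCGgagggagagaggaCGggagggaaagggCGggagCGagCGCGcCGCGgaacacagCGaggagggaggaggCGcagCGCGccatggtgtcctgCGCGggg
Hoxa5 promoter, chr6:52204538-52204837, minus strand: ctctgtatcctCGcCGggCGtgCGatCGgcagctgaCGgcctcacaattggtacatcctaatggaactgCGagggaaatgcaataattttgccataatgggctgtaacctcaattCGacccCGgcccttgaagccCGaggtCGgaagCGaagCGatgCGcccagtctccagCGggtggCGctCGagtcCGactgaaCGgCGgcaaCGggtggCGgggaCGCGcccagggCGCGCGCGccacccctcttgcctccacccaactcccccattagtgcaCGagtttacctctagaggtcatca
Hoxd8 promoter, chr2:74704365-74704664, plus strand: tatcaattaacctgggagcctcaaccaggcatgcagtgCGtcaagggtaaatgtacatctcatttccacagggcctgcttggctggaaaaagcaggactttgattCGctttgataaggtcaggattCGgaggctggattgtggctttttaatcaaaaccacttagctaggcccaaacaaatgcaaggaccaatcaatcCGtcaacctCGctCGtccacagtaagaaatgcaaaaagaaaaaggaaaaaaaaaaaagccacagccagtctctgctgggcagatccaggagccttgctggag
Motifs were searched on both strands. TGATNNAT, the site of PBX and HOX pairs, was in 18.2% of the 22 windows and in 8.85% of all windows, TTTATG, a CDX site, in 18.2% and 11.9%, and TGACAG, a MEIS site, in 9.09% and 19.2%. TATAAA was in 13.6% of both sets, and AGGTCA, a retinoic acid receptor half-site, in 27.3% and 16.3%. AGGTCA was found in the Hoxa5 and Hoxd8 windows shown, and TATAAA in that of Hoxd13. These matches describe the letters of 22 windows and were not tested.

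Other genes that work with or on the Hox clusters were read from lists of their own. Of 8 measured HOX cofactors, which bind DNA beside HOX proteins, 3 fell in iPSC relative to MEF and 1 rose: Meis1 (log2 difference -2.56), Pbx3 (-1.69) and Meis3 (-0.73) fell, and Pknox1 (0.49) rose. Of 23 mesenchymal and limb transcription factors 15 fell and 0 rose, led by Prrx1 (-4.20), Tbx15 (-3.89), Twist2 (-3.70) and Tbx5 (-2.54). Of 25 Polycomb and trithorax genes, which silence or maintain Hox expression, 17 rose and 2 fell. The largest of these were Cbx7 (3.24), a reader of the Polycomb mark, and Jarid2 (2.75), Phc1 (2.72) and Mtf2 (2.67), subunits of Polycomb complexes. Of 14 genes of the retinoic acid pathway, an inducer of anterior Hox genes, 6 fell and 0 rose, with Crabp1 (-2.87), Crabp2 (-1.93), Dhrs3 (-1.84) and Rdh10 (-1.11) at the top. Of 24 genes that flank the clusters, 3 on each side of each, 5 were higher in iPSC and 1 was lower, with a median log2 difference of 0.12. Of 9 axial patterning signals 3 rose and 1 fell, and of the 2 Evx genes, homeobox genes next to HoxA and HoxD, 0 passed the test (limma, both differences between -0.07 and 0).

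The second comparison was the one named by the design, Nanog KO iPSC against WT pluripotent cells (WT iPSC and WT ESC together). In KO iPSC 4 of the 36 Hox genes rose (11.1%) and 0 fell (limma, adjusted p below 0.05 over all genes), against 6.89% of all genes called higher and 8.81% called lower. The 4 were Hoxc13, Hoxc12 and Hoxc11, which follow each other at the 5′ end of HoxC, and Hoxd8. The median Hox difference was 0.11, against 0.03 over all genes. Both KO arrays lay above all 3 WT arrays in 12 members (33.3%, against 28.4% of all genes) and below them in 1, Hoxb8 (2.78%, against 23.2% of all genes).

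Hoxc13, known for its role in hair and nail formation, had 9.15 and 9.18 in KO iPSC, against 7.52 and 7.92 in WT iPSC and 7.03 in WT ESC. The MEF arrays had 7.0 (KO) and 7.23 (WT), so the KO iPSC arrays were higher than any other array in the series. Hoxc13 was 3.20-fold higher in KO iPSC than in WT pluripotent cells (log2 difference 1.68, SE 0.25, adjusted p 0.011, limma). Hoxc12, its neighbour, had 9.004 and 8.98 in KO iPSC, against 7.82 and 7.599 in WT iPSC and 6.83 in WT ESC. The MEF arrays had 6.84 (KO) and 7.81 (WT). Hoxc12 was 2.98-fold higher in KO iPSC (log2 difference 1.58, SE 0.29, adjusted p 0.0198, limma).

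Hoxc11 had 6.21 and 6.31 in KO iPSC, against 5.89 and 5.86 in WT iPSC and 5.73 in WT ESC. All 5 values were below background, so its difference of 0.44 (adjusted p 0.0288, limma) is given with no fold. Hotair, a long non-coding RNA transcribed between Hoxc12 and Hoxc11, had 6.79 and 6.84 in KO iPSC, against 6.42 and 6.49 in WT iPSC and 6.44 in WT ESC (log2 difference 0.37, adjusted p 0.0289, limma). Along HoxC from its 5′ end the differences were 1.68 (Hoxc13), 1.58 (Hoxc12), 0.37 (Hotair), 0.44 (Hoxc11), 0.33 (Hoxc10) and 0.18 (Hoxc9), the last 2 not passing the test. Farther along, Hoxc8 differed by -1.07 (adjusted p 0.30, limma), and by -0.46 without WT iPSC replicate 1. On the WT pluripotent arrays Hoxc8 had the same order as the fibroblast markers. The 6 measured flanking genes of HoxC, including Calcoco1 (0.25), Smug1 (0.20) and Cbx5 (-0.06), were not called.

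**Figure D4:**
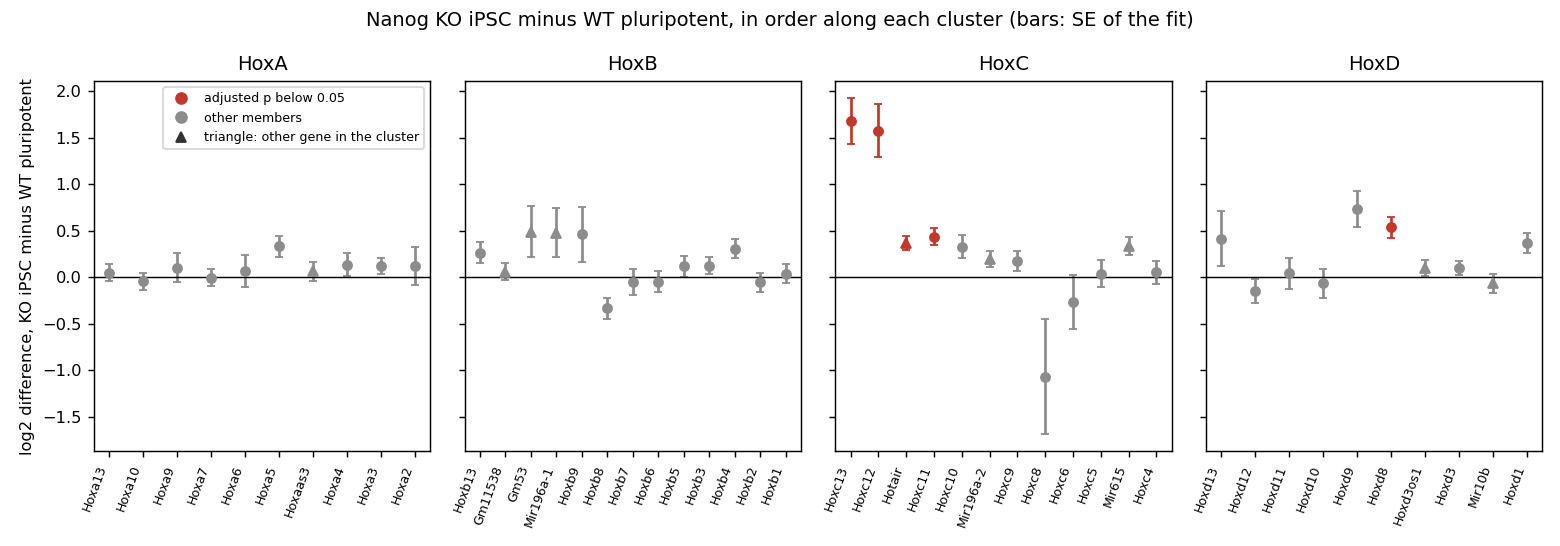
Log2 difference of Nanog KO iPSC minus WT pluripotent cells (y axis) for Hox genes (circles) and other measured genes inside the clusters (triangles), ordered along each cluster by RefSeq start from the highest paralogue number (x axis), with bars giving the standard error of the fit and red marking an adjusted p below 0.05. Hoxc13 (1.68) and Hoxc12 (1.58) stand above all others, and Hoxc8 (-1.07) lies lowest with the widest bar.

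Hoxd8, a trunk gene, had 7.57 and 7.47 in KO iPSC, against 7.14 and 6.97 in WT iPSC and 6.83 in WT ESC, a 1.45-fold higher level in KO iPSC (adjusted p 0.0308, limma). Its neighbour Hoxd9 differed by 0.74 (adjusted p 0.0558, limma), with all 5 arrays below background. In HoxA and HoxB no member passed, and the differences ran from -0.04 to 0.33 in HoxA and from -0.33 to 0.46 in HoxB. At an unadjusted p below 0.05 (limma) were 10 of the 36 members (27.8%), against 31.5% of all genes. The calls did not hold with either KO iPSC array left out, while the Hoxc13 difference was 1.69 and 1.66. More members were called without WT iPSC replicate 1, and only Hoxc13 was without WT iPSC replicate 2. Shares of all genes in these settings were not compared.

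Set against WT iPSC alone, the same 4 genes passed and 0 fell, with 6.93% of all genes called higher and 9.55% called lower. These arrays are shared with the comparison above, so the calls are not independent of it. Hoxc13 was 2.73-fold higher in KO iPSC (log2 difference 1.45, SE 0.15, adjusted p 0.00559, limma), Hoxc12 2.44-fold (1.28, SE 0.11, adjusted p 0.00355), Hoxd8 1.38-fold (0.46, adjusted p 0.042), and Hoxc11 differed by 0.39 (adjusted p 0.0441). Without either KO iPSC array Hoxc12 was the 1 gene still called, at 1.27 and 1.296, and Hoxc13 had an adjusted p of 0.0562 and 0.0561 (limma). The set of Hox genes called also changed without WT iPSC replicate 1 or 2, in fits that leave 1 array in that group.

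Some fibroblast and pluripotent markers were lower in KO iPSC. In KO iPSC 8 of 30 fibroblast markers and 5 of 15 pluripotent markers were lower than in WT pluripotent cells and 0 of either were higher. Among all genes 8.81% were called lower and 6.89% higher. Nanog, the gene knocked out, is 1 of the 5 (-5.30). The median difference was -0.94 for the fibroblast markers and -0.24 for the pluripotent markers, most of which were not called. Of markers listed for other cell types, 1 of 8 haematopoietic markers was higher, while 3 of 7 neural, 1 of 6 skeletal muscle and 3 of 6 epithelial markers were lower and 0 of 6 endothelial markers passed (limma). Their part in the Hox differences was not tested.

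Some partners of HOX proteins differed between the same groups, in both directions, and any tie to the Hox differences was not tested. Meis2, a cofactor of HOX proteins, had 10.68 and 10.48 in KO iPSC, against 7.74 and 8.05 in WT iPSC and 6.92 in WT ESC, 8.03-fold higher in KO iPSC (log2 difference 3.01, adjusted p 0.0045, limma). The KO iPSC values were near those of KO MEF (10.59) and above that of WT MEF (9.69). Pknox2, of the same class, differed by 1.43 (adjusted p 0.0157, limma) and rose, while Pbx3 fell (-0.95), so 2 of the 8 measured cofactors rose and 1 fell. Of the 6 Cdx and ParaHox genes, which include direct regulators of Hox clusters, Cdx1 (0.66) and Pdx1 (0.37) rose. Of 25 Polycomb and trithorax genes 4 rose, Ash2l (0.64), Bmi1 (0.60), Suz12 (0.53) and Kmt2d (0.33), and 2 fell, Rbbp5 (-0.64) and Pcgf6 (-0.40). Of 14 retinoic acid pathway genes 3 fell, Crabp1 (-2.41), the receptor gene Rarg (-1.44) and Crabp2 (-1.09), and 0 rose. Of the 23 mesenchymal and limb factors 3 rose and 0 fell: Tbx18 (0.95), Isl1 (0.56) and Lhx9 (0.53).

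No Hox gene passed the test between WT ESC and WT iPSC. In WT ESC 0 members were called higher and 0 lower than in WT iPSC (limma), and 0.0812% of all genes were called in each direction (18 genes each). At an unadjusted p below 0.05 (limma) were 3 members (8.33%), a smaller share than the 12.2% of all genes. The 3 were Hoxc12, Hoxd13 and Hoxc13, with log2 differences of -0.87, -0.83 and -0.69. Hoxd13 had 5.91 in WT ESC, below background, against 6.91 and 6.55 in WT iPSC. WT ESC was the lowest of the 5 pluripotent arrays in 19 of 36 Hox genes (52.8%, against 26.0% of all genes), and WT iPSC replicate 1 was the lowest in 0. With 1 ESC array the test borrows its spread from the iPSC pairs. The Hox calls changed when either WT iPSC array was left out, which leaves 1 array on each side.

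In MEF, Nanog KO and WT were 1 array each, so the differences have no replicate check. In KO MEF 25 of the 36 Hox genes had a lower value than in WT MEF and 11 a higher one, with a median log2 difference of -0.25 (-0.02 over all genes). At least 2-fold lower in KO MEF were 5 genes (13.9%, against 1.77% of all genes), Hoxa5 (-1.74), Hoxb6 (-1.69), Hoxa3 (-1.39), Hoxa6 (-1.15) and Hoxb7 (-1.02). At least 2-fold higher was 1 gene, Hoxd8 (1.22), which is 2.78% against 2.80% of all genes.

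By cluster these values are a description with no test. In HoxB 9 of 10 genes had a lower value in KO MEF (median log2 difference -0.55), and the exception was the brighter Hoxb5 probe set (0.11), whose second probe set differed by -1.35. In HoxA Hoxa3 (-1.39), Hoxa9 (-0.24) and all 4 genes of groups 4 to 8 (median -0.94) had lower values in KO MEF, while Hoxa2 (0.88), Hoxa10 (0.60) and Hoxa13 (0.42) had higher values. In HoxC 8 of 9 had a lower value, with a median of -0.30 and Hoxc12 (-0.97) as the largest difference. In HoxD 6 of 8 had a higher value in KO MEF (median 0.59), Hoxd8 (1.22), Hoxd9 (0.76), Hoxd13 (0.68), Hoxd3 (0.63), Hoxd11 (0.55) and Hoxd10 (0.04). Of the 23 mesenchymal and limb factors 3 were at least 2-fold higher in KO MEF and 1 lower, against 2.80% and 1.77% of all genes. Their median difference was 0.51. Among them were Meox2, at 10.13 in KO MEF and 6.70 in WT MEF, and Shox2, 1.77 higher in KO MEF on the log2 scale. Meox1 was at 6.40 in KO MEF, close to that array's yardstick of 6.35, and at 8.27 in WT MEF. Markers of cell types moved as well. Of 30 fibroblast markers 7 were at least 2-fold higher in KO MEF and 0 lower, with Lum at 10.60 in KO MEF and 5.09 in WT MEF and Dcn at 12.19 in KO MEF and 7.99 in WT MEF. The median difference of 8 haematopoietic markers was -0.62, with Lyz2 at 8.31 in KO MEF and 10.42 in WT MEF. The 7 neural markers had a median difference of 0.01. Of them 2 were at least 2-fold lower in KO MEF, Nes (-2.80) and Tubb3 (-1.06), and 0 were at least 2-fold higher. Their part in the Hox differences was not tested, and genotype, the embryo and the culture cannot be told apart here.

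**Figure D5:**
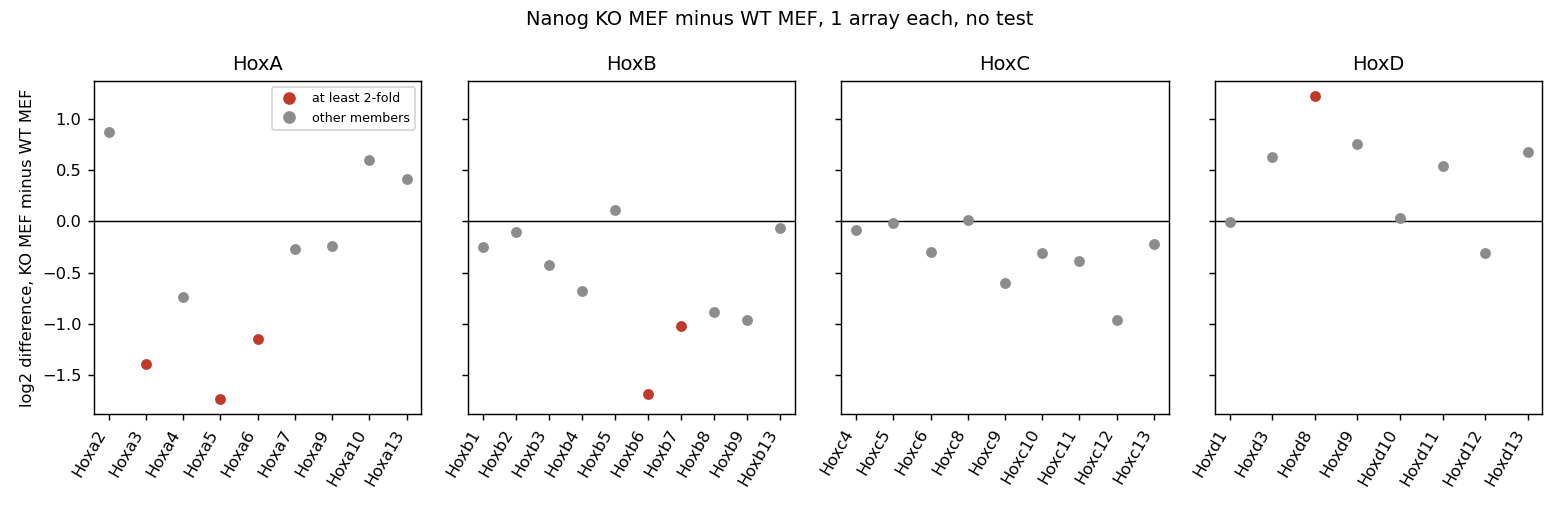
Log2 difference of Nanog KO MEF minus WT MEF (y axis, 1 array each, no error) for each Hox gene by cluster (x axis), with red marking at least 2-fold. Genes of HoxB and mid HoxA lie mostly below 0, down to -1.74 for Hoxa5, and 6 of the 8 HoxD genes lie above 0.

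Whether the KO minus WT difference itself differed between iPSC and MEF was tested as an interaction. It was higher in iPSC for 7 of 36 Hox genes (19.4%) and lower for 0 (limma, adjusted p below 0.05), against 3.07% and 5.48% of all genes. For Hoxc12 (2.25, adjusted p 0.00787), Hoxc13 (1.67, adjusted p 0.027) and Hoxc11 (0.77, adjusted p 0.0458) the KO minus WT difference was positive in iPSC (1.28, 1.45 and 0.39) and negative in MEF (-0.97, -0.22 and -0.39). For Hoxa5 (2.03), Hoxb6 (1.73), Hoxa3 (1.54) and Hoxb4 (0.95) the difference in iPSC was 0.29, 0.04, 0.15 and 0.26, and that in MEF was -1.74, -1.69, -1.39 and -0.68. Hoxa5, Hoxb6 and Hoxc11 were below background on every iPSC array, so their differences in iPSC could not be read as changes in level. A fall in KO iPSC like that in KO MEF could not show there. Hoxa3 lay between 6.47 and 6.69 in iPSC, close to the yardstick.

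Seen from the other side, the iPSC minus MEF difference was unequal between the genotypes for these genes. Hoxa3, a gene of the neck region, had 6.64 and 6.69 in KO iPSC against 6.68 in KO MEF, a difference of -0.01. In WT cells it had 6.57 and 6.47 in iPSC against 8.07 in MEF, a difference of -1.55. Hoxb4, an axial gene also studied in blood progenitors, had 7.19 and 7.12 in KO iPSC against 7.57 in KO MEF, and 6.98 and 6.80 in WT iPSC against 8.26 in WT MEF. Hoxc12 was 2.15 higher in KO iPSC than in KO MEF on the log2 scale, and WT iPSC minus WT MEF was -0.10. The 7 calls did not hold with either KO iPSC array left out, and the set of Hox genes called also changed without WT iPSC replicate 1 or 2. Each of these fits leaves 1 array in an iPSC group, and their counts were not compared with those of all genes. The spread of the MEF groups is assumed from the iPSC pairs.

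Of the 13 listed RNAs encoded within the Hox clusters besides the Hox genes, 7 had a probe set. Hoxaas3, antisense in HoxA, fell in iPSC relative to MEF (log2 difference -0.45, adjusted p 0.0295, limma), and it was the 1 call of the 7 in that comparison. Whether the probe sets of Hoxaas3 and Hotair read their own strand apart from the Hox genes they overlap was not tested. For the microRNA genes, whether a probe set reads the mature microRNA or longer RNA of the locus was not tested either. Their values are therefore not given as levels of the mature microRNA. Mir196a-1, a microRNA gene of the HoxB cluster, had 7.40 and 7.27 in KO iPSC and 7.28 and 6.93 in WT iPSC, against 7.52 in KO MEF and 7.92 in WT MEF, and its difference of -0.50 did not pass (adjusted p 0.106, limma). Its value in WT ESC was 6.36, the lowest of the 7 arrays. Mir10b, in HoxD, lay between 3.70 and 4.04 on the 7 arrays and below background on all of them. The 5′ arms of both are shown (that of Mir196a-2 in HoxC has the same sequence) because miR-196 is known to act on Hoxb8 RNA in the mouse and miR-10 lies in the clusters beside group 4. Sequences are from RefSeq on GRCm38.p6, with the seed (bases 2 to 8) in capitals.
mmu-miR-196a-5p, chr11:96265187-96265208, plus strand: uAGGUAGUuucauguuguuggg
mmu-miR-10b-5p, chr2:74726074-74726096, plus strand: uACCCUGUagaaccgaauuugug
Hoxb8 itself had 5.68 and 5.87 in KO iPSC and 6.16 and 6.20 in WT iPSC, against 6.60 in KO MEF and 7.48 in WT MEF. It was below background on all 5 pluripotent arrays and at least 1.52-fold lower in iPSC than in MEF (adjusted p 0.00459, limma).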

How the data were processed

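RNA of 7 samples was hybridised to Affymetrix whole-transcript arrays from 73.5 ng of total RNA, per the labels' protocols. The deposited values are linear intensity values per probe set, from 9.67 to 13043. Per the submitters' processing notes, RMA and version 1.3.0.187 of Affymetrix Expression Console were used. The plan allowed for log2 or linear values, and log2 was taken here. No scanner files were used, 0 columns were unmapped, and precision is limited by how few arrays there are. Of 33649 probe sets 23521 had 1 symbol in the platform annotation, 1814 several and 8314 no entry, and only the first kind was used. The probe set with the highest mean stood for a gene, which gave 22180 genes.

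limma 3.58.1, under R 4.3.3, with eBayes (two-sided, Benjamini-Hochberg over all genes, threshold 0.05) was run on all genes, and tested on simulated data first. iPSC minus MEF used 6 arrays with genotype as a term, KO iPSC minus WT pluripotent used 5 arrays, and the other tests used all 7 with a coefficient per group. For KO MEF minus WT MEF there was no test, and 2-fold was counted. Where every array of the lower group was below the yardstick, the fold is a bound from the mean yardstick. Values were given per array for the 12 members with the largest iPSC minus MEF difference and for all called elsewhere. Members of 218 listed genes with a probe set numbered 202. The Hox members and the lists were chosen with earlier results of these data known. Alternatives were median centring, quantile normalization, filters on dim genes, the mean of probe sets, a trended robust variance, other sets of arrays, each array left out, a replicate block and other yardsticks.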

Additional observations from a re-analysis of the deposited data

Results flagged for a closer look

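For 7 Hox genes the KO minus WT difference differed between iPSC and MEF by the test of that difference itself. The interaction, as a log2 value, was 2.249 for Hoxc12, 2.03 for Hoxa5, 1.725 for Hoxb6, 1.672 for Hoxc13, 1.539 for Hoxa3, 0.949 for Hoxb4 and 0.771 for Hoxc11. Each rests on 1 array per genotype in MEF, whose spread was not measured. Hoxa5, Hoxb6 and Hoxc11 were below background on every iPSC array, and Hoxa3 was close to the yardstick there. Groups held at most 2 arrays, so no array was tested as an outlier within its group.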

How the results depend on the processing

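The count of Hox genes lower in iPSC than in MEF was 25 and ran from 17 to 28 over all alternatives. Those higher, 0, became 1 with the dimmest genes left out, with genes never above the yardstick left out and with a trended robust variance, 2 with all 7 arrays by group, and 0 to 2 with 1 array left out. Hoxc12 in that comparison turned to -0.10 without KO MEF and was 2.15 without WT MEF. With 1 array left out, the Hox genes higher in KO iPSC numbered 0 to 9 against WT pluripotent cells and 1 to 9 against WT iPSC (0 to 2 lower), those in WT ESC against WT iPSC 0 to 1 higher and 0 to 7 lower, and those in the interaction 0 to 14 higher and 0 to 5 lower. The yardstick moved the counts above background: 15 on both MEF arrays with the 99th percentile, 30 and 2 on all 5 pluripotent arrays with the 90th and 99th, and 1 and 11 on both MEF and no pluripotent array. The causes were not tested. The iPSC replicate numbers did not pair the samples (correlation of same-number deviations 0.02), and with the replicate block 3 Hox genes were called higher in KO iPSC, without Hoxc11 (adjusted p 0.079, limma). Centring each array on its median changed the split of all genes in KO iPSC against WT pluripotent cells to 1910 higher and 1620 lower, against 1529 and 1954 without it.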
